A study of Sus scrofa with 6 samples.

Results

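Enteroendocrine cells are scattered epithelial cells that store peptide hormones in granules and release them into the blood or onto neighbouring cells when nutrients, bile or nerves stimulate them. Chromogranins are granule proteins that most of these cells share, while the hormones divide the cells into kinds that are richest in different stretches of the gut. In the ileum the textbook kinds are L cells with the proglucagon peptides and peptide YY, N cells with neurotensin, D cells with somatostatin, and enterochromaffin cells with serotonin and the tachykinin substance P.

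The genes described here are 10 peptide hormone genes, NTS, PYY, GCG, CCK, GIP, SST, SCT, GHRL, TAC1 and GAL, which were chosen by name and were all found among the 20648 genes of the files. They were read in barcodes taken as enteroendocrine, meaning at least 1000 unique molecular identifiers (UMIs, each standing for 1 captured transcript), at least 500 genes, and at least 10 UMIs of the chromogranin genes CHGA and CHGB together. This gate held 775 of 76099 cells. A hormone was called in a barcode at 10 or more UMIs. The cells came from scraped ileal mucosa of male Large White piglets that suckled their mothers and were given no antibiotics, with 1 library at each of days 0, 1, 3, 7, 14 and 21 after birth. The study took several piglets at each age and loaded 1 chip channel per age, so each library is 1 sample. With 1 library per age there is no replicate error, no test was run, and every difference between ages is a difference between 2 libraries. The intervals given are exact 95% intervals and cover counting error only.

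The libraries held 77391932 to 100348769 UMIs and 10836 to 15956 cells each. Cells with at least 3 UMIs of 8 epithelial markers made up 36.0% of cells on day 0 and 16.9%, 1.95%, 5.74%, 0.332% and 0.00724% at the 5 later ages in turn. Cells with B lineage markers made up 28.0% of the cells outside the gate on day 0 and 84.8% on day 7. Any share given over all cells moves with this change in the mix, and fewer cells of a kind and less RNA per cell cannot be told apart in sums over a library. No enteroendocrine barcode sequence of one library was an enteroendocrine barcode of another, although 31 to 68 cell barcode sequences were shared by each pair of libraries.

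Enteroendocrine barcodes numbered 618, 107, 40 and 10 in the libraries of days 0, 1, 3 and 7, and none was found at the last 2 ages. As shares of all cells these were 5.70% (5.27 to 6.16), 0.931% (0.764 to 1.12), 0.352% (0.252 to 0.479) and 0.0792% (0.0380 to 0.146). The count of 0 allows up to 0.0188% of the day 14 cells and 0.0217% of the day 21 cells, and the highest CHGA and CHGB sum in any cell there was 2 and 1 UMIs. Among epithelial cells the gated share was 15.8% (14.7 to 17.0), 5.49% (4.52 to 6.6), 15.8% (11.2 to 21.2) and 1.38% (0.663 to 2.52) at those 4 ages, counting only the 35 gated barcodes of day 3 that were epithelial. The share of epithelial cells was thus the same to 3 digits on days 0 and 3, while the share of all cells differed. With 222 epithelial cells on day 3 the interval there is wide. The median depth of epithelial cells was 7126, 6035.5, 5132 and 2108 UMIs at those 4 ages. The gate counts UMIs, and its share was not taken at equal depth. The gate was crossed gradually, since 56 barcodes held 10 to 14 UMIs of CHGA and CHGB on day 0 and 84 held 5 to 9.

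The label of the gate was checked against markers. All 618 gated barcodes of day 0 and all 107 of day 1 had at least 3 epithelial UMIs, and the 8 genes of the enteroendocrine marker list stood at 112 UMIs per 10000 in the gate on day 0 against 0.794 in the other cells, though that list holds CHGA and CHGB, which set the gate. On day 3 the label held for fewer barcodes, because 5 of the 40 had fewer than 3 epithelial UMIs, and 4 of the 40 held GAL together with at least 3 UMIs of the list for enteric neurons and glia. The day 3 counts over hormones are given with and without the 4 GAL barcodes, an alternative chosen after the data were seen. On day 0 the neuron and glia list reached 3 UMIs in 25 of the 618 gated barcodes, 4.05% against 1.23% of the other cells, and in 20 of the 75 with NTS, 14 of the 35 with SCT and 15 of the 84 with PYY. Stromal markers reached 3 UMIs in 16.8% of the gated barcodes of day 0 against 4.06% of the other cells, and in 2.80% of the gated barcodes of day 1. Their part in the results was not tested.

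In the day 0 library 139 of the 618 enteroendocrine barcodes, 22.5% (19.3 to 26.0), held at least 1 of the 10 hormones. The day 1 library had 16.8% (10.3 to 25.3), the day 3 library 22.5% (10.8 to 38.5) and the day 7 library 4 of 10 barcodes, and the intervals overlap. Without the 4 GAL barcodes the day 3 share was 5 of 36, 13.9% (4.67 to 29.5). The shares depended on the gate: on day 0 it was 13.6% with a gate of 20 UMIs and 39.6% with the gate set on SCG2, SCG3 and SCG5, and the latter gave 41.9% on day 3. Most gated barcodes therefore held none of the 10 hormones at this threshold. TPH1, which encodes the enzyme that starts serotonin synthesis in the gut, reached 3 UMIs in 315 of the 479 barcodes without a hormone on day 0, 65.8% (61.3 to 70.0), and in 19 of the 139 with one, 13.7% (8.43 to 20.5). On day 1 the same shares were 69.7% (59.0 to 79.0) and 33.3% (13.3 to 59.0).

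**Figure D1:**
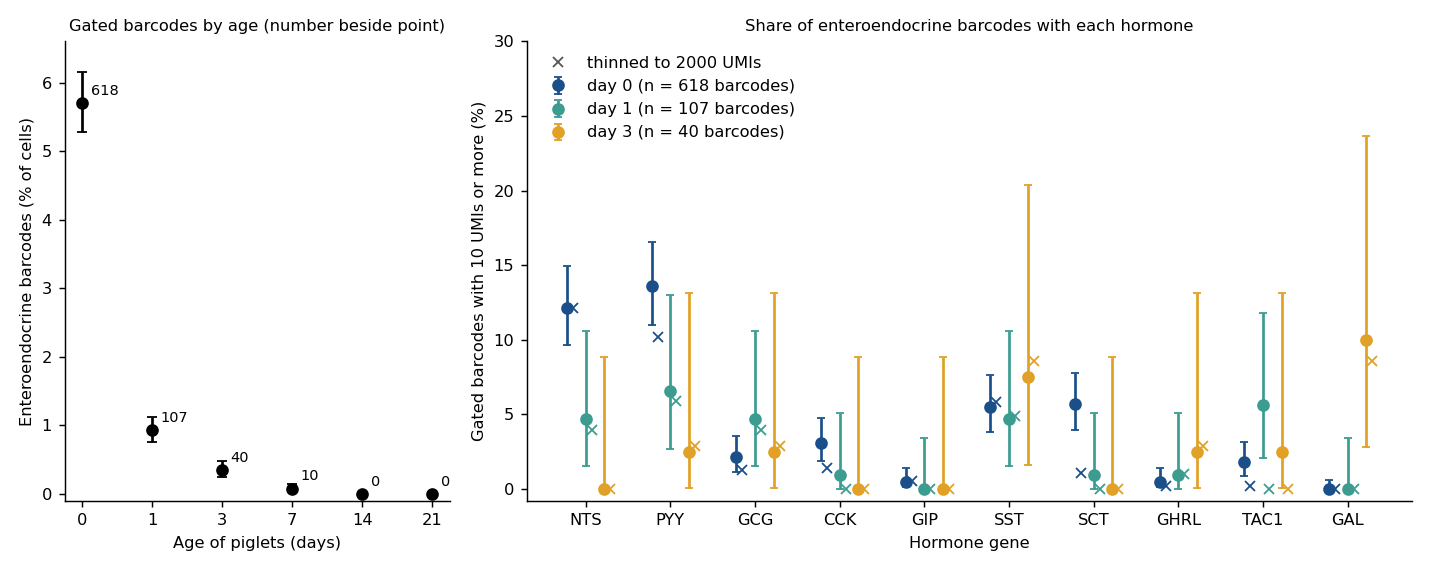
Left, enteroendocrine barcodes as a percentage of cells at each age (ages evenly spaced, number of barcodes beside each point). Right, percentage of enteroendocrine barcodes with 10 or more UMIs of each hormone on days 0, 1 and 3, with crosses for barcodes thinned to 2000 UMIs; bars are exact 95% intervals. NTS and PYY stand above the other hormones on day 0 at 12.1% and 13.6%, and the crosses for SCT and TAC1 on day 0 lie far below their points.

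NTS, PYY and GCG encode the hormones that textbooks place in the distal small intestine. NTS (chr5:96261299-96272947, all positions in Sscrofa11.1) encodes neurotensin, which slows gut movement and aids fat uptake. NTS was called in 75 gated barcodes on day 0, 12.1% (9.67 to 15), in 5 of the 107 barcodes at day 1, 4.67% (1.53 to 10.6), in none of the 40 barcodes at day 3 and in 2 of the last 10. Where it was called on day 0 it held 12 to 5352 UMIs with a median of 1588, and at the median it made up 22.9% of all UMIs of the barcode. Thinning to 2000 UMIs kept 568 gated barcodes on day 0 and 102 on day 1, with NTS shares of 12.1% and 3.92%. The same call was made in 7 of the 1856 day 0 cells outside the gate with at least 3 UMIs of T cell markers, 0.377% (0.152 to 0.776). Of the 7, 4 also had at least 3 epithelial UMIs. The other 3 are among the NTS cells of few epithelial UMIs described below, so this share is not a background free of NTS cells. The median depth was 4235 UMIs in the gate and 3654 in all other cells.

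PYY (chr12:19190703-19208373) encodes peptide YY, the L cell hormone that restrains appetite and motility. PYY was called in 84 barcodes on day 0, 13.6% (11 to 16.5), and in 7, 1 and 2 at the next 3 ages, with a day 1 share of 6.54% (2.67 to 13). The UMIs ran from 11 to 3391 on day 0 with a median of 77, and the day 0 share was 10.2% after thinning. GCG (chr15:68800557-68810268) encodes proglucagon, the precursor of glucagon-like peptides 1 and 2. GCG was called in 13 barcodes on day 0, 2.10% (1.12 to 3.57), and in 5, 1 and none at the next 3 ages, with a day 1 share of 4.67% (1.53 to 10.6). Thinning left 7 of 568 GCG barcodes on day 0, 1.23% (0.497 to 2.52), and a day 1 share of 3.92% (1.08 to 9.74). The day 0 and day 1 intervals of PYY and of GCG overlap. Of the 1856 day 0 cells with T cell markers, 7 held PYY, all of them with at least 3 epithelial UMIs, and 1 held GCG, 0.0539% (0.00136 to 0.300).

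CCK, GIP, SCT and GHRL encode hormones best known from the stomach or the upper small intestine. CCK (chr13:25940674-25945879) encodes cholecystokinin, which empties the gallbladder, and was called in 19 gated barcodes on day 0, 3.07% (1.86 to 4.76), in 1 each at days 1 and 7 and in none at day 3. Thinning left the CCK share of day 0 at 1.41% (0.610 to 2.76) and no CCK barcode on day 1. GIP (chr12:25160783-25167952) encodes an incretin that raises insulin release and was called in 3 barcodes on day 0, with 25 to 574 UMIs, and in none later. SCT (chr2:382783-385082) encodes secretin, which raises bicarbonate secretion, and was called in 35 barcodes on day 0, 5.66% (3.98 to 7.79), and in 1 on day 1. SCT was always low, with 10 to 82 UMIs and a median of 16, and after thinning its day 0 share was 1.06% (0.389 to 2.28). GHRL (chr13:66442106-66453576) encodes ghrelin, the hunger hormone of the stomach, and was called in 3 barcodes on day 0, of which 1 was left after thinning, and in 1 each on days 1 and 3.

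SST (chr13:125337560-125338742) encodes somatostatin, which D cells release to hold back other endocrine cells. SST was called in 34, 5, 3 and 1 gated barcodes at the 4 ages, which was 5.50% (3.84 to 7.6), 4.67% (1.53 to 10.6) and 7.50% (1.57 to 20.4) for the first 3. These intervals overlap. The calls were clear in each case, with 118 to 1924 UMIs in the day 0 barcodes, 328 to 1240 and 734 to 1382 in those of days 1 and 3, and 993 in the last. SST made up a median of 20.6%, 20.1% and 21.9% of the UMIs of its barcodes on days 0, 1 and 3, so the amount in an SST barcode was close across these libraries. Of the cells outside the gate with T cell markers, 2 of 1856 on day 0 and 1 of 1649 on day 1 held SST, each of them with at least 3 epithelial UMIs.

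TAC1 (chr9:77197403-77206529) encodes the precursor of substance P and neurokinin A, which contract gut muscle. TAC1 was called in 11 gated barcodes on day 0, 1.78% (0.892 to 3.16), in 6 at day 1, 5.61% (2.09 to 11.8), and in 1 each on days 3 and 7. The levels were near the threshold, with medians of 12 UMIs on day 0 and 15.5 on day 1, and thinning left 1 barcode on day 0 and none on day 1. GAL (chr2:4351113-4357167) encodes galanin, a peptide of enteric neurons. It was called in no gated barcode on days 0, 1 and 7 and in 4 of 40 on day 3, with 60 to 116 UMIs. All 368 GAL UMIs of the day 3 gate lay in those 4 barcodes.

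More hormone barcodes of day 0 held several hormones than held 1. Of the 139, 52 held 1 hormone, 42 held 2, 40 held 3, 4 held 4 and 1 held 5, so that 87 of the 139, 62.6% (54.0 to 70.6), held 2 or more. NTS and PYY shared 60 barcodes, which is 80.0% (69.2 to 88.4) of the NTS barcodes and 71.4% (60.5 to 80.8) of the PYY barcodes, against PYY in 4.42% (24 of 543) of the barcodes without NTS. SCT was found in 32 of 75 NTS barcodes, 42.7% (31.3 to 54.6), and in 3 of 543 without NTS, so 91.4% (76.9 to 98.2) of SCT barcodes also held NTS. PYY was in 12 of 13 GCG barcodes, in 13 of 19 CCK barcodes and in all 3 GIP barcodes. Only 6 NTS barcodes and 10 PYY barcodes held no other of the 10, and no GCG, GIP or SCT barcode stood alone. Barcodes with NTS and PYY were deep, with medians of 7365 and 7392.5 UMIs against 4235 over the gate, and barcodes of 2 joined cells were not removed. After thinning, SCT was called in 6 of 568 gated barcodes of day 0, against 35 of 618 before. NTS was then called in 69 and PYY in 58. The 91.4% for SCT thus rests on calls that mostly fell below the threshold after thinning. Of 71 alternative values for 6 results on hormone pairs, 58 stayed within the bounds given in the last section and 13 moved further. Sharing after thinning is not given here. Joined cells were not called, and their part in the sharing was not tested.

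SST and TAC1 showed the other pattern. Of the 34 SST barcodes of day 0, 23 held no other hormone, and of the 11 TAC1 barcodes 10 held none, the remaining one holding CCK. NTS was found in 17.6% (6.76 to 34.5) of SST barcodes and in 11.8% of those without SST, and the intervals overlap. SCT, CCK and GIP were found in none of the 34. All 3 GHRL barcodes of day 0 also held SST, and the single GHRL barcode of day 3, with 50 UMIs of GHRL, held SST and PYY. TPH1 reached 3 UMIs in 9 of the 11 TAC1 barcodes of day 0 and in 5 of 6 on day 1, against 2 of 34 SST barcodes and 3 of 75 NTS barcodes on day 0. Stromal markers reached 3 UMIs in 7 of the 12 day 0 cells with TAC1.

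On days 1 and 3 the numbers are small. Of the 18 hormone barcodes of day 1, 9 held 2 or more. Each of the 5 NTS and 7 PYY barcodes of day 1 held another hormone, while the 6 TAC1 barcodes held none. Only 2 of the 5 SST barcodes and 1 of the 5 GCG barcodes of day 1 held no other hormone. On day 3, 1 of the 9 hormone barcodes held more than 1, and all 4 GAL barcodes held GAL alone. The single GCG barcode of day 3 and 2 of its 3 SST barcodes held no other hormone. On day 7 both NTS barcodes held PYY and 1 of them held CCK too.

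**Figure D2:**
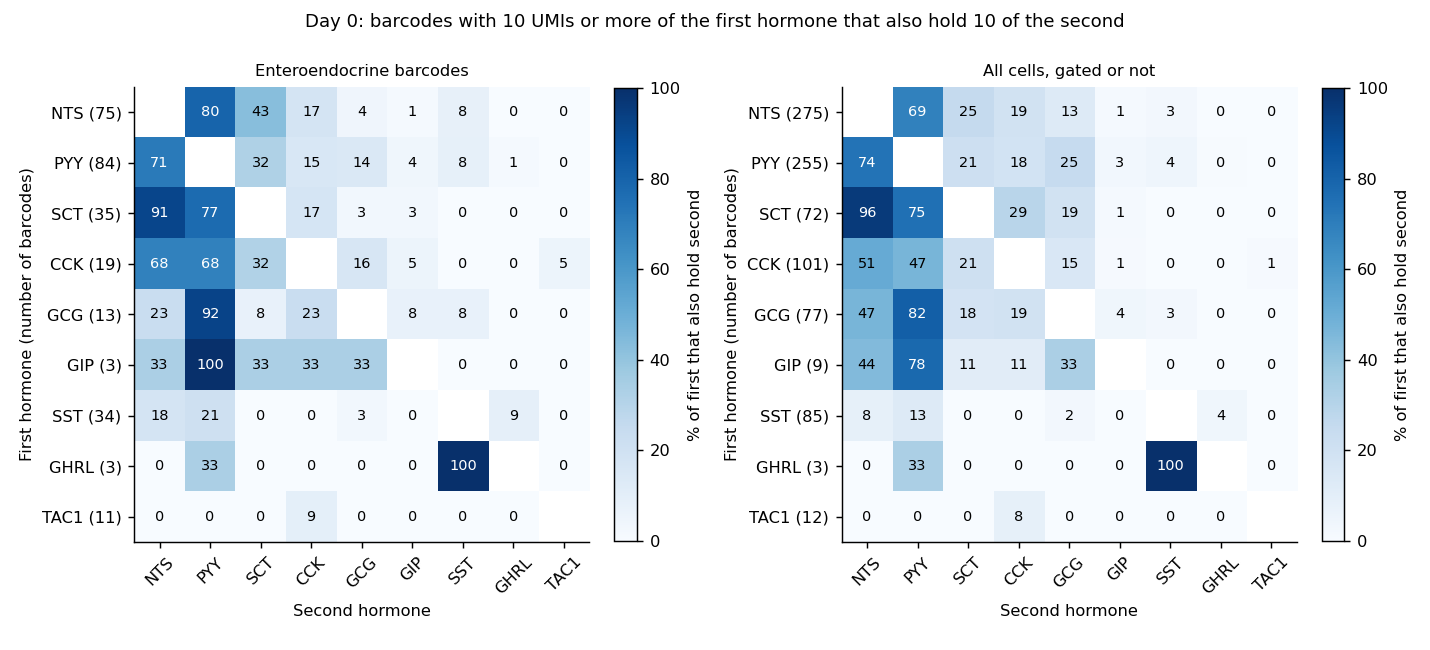
Percentage of day 0 barcodes with 10 or more UMIs of the hormone on the vertical axis that also held 10 or more of the hormone on the horizontal axis, in the gate (left) and in all cells (right), with the number of barcodes in brackets. NTS, PYY and SCT form a block in both panels, with PYY in 80% of gated NTS barcodes and in 68.7% of NTS barcodes among all cells, while the gated SST row reaches 20.6% at most (PYY), and all 3 GHRL barcodes held SST.

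Across the 775 gated barcodes, centred within each library, Pearson's r of log values was 0.66 for NTS with SCT, 0.63 for NTS with PYY, 0.61 for SST with GHRL, 0.49 for PYY with GCG and 0.46 for PYY with SCT. These correlations are descriptions over cells that share libraries and depth. Other genes were ranked by the same measure, with the 10 hormones left out of the ranking. The gene most like NTS was then RBP4, the plasma retinol carrier (r = 0.75), followed by CHP2 and ERI3 (0.51 and 0.49). The gene most like SCT was also RBP4 (0.56), and RBP4 came close for PYY (0.54) after LYPD8 and PAPPA2 (0.58 and 0.57). SST was most like ISL1, a transcription factor of endocrine cells and neurons (0.60), then DIRAS3 and GPX3 (0.52 and 0.48). CCK was most like LYPD8 (0.35). RBP4, ISL1 and LYPD8 also came first for NTS, SST and CCK by Spearman's rho within day 0 (0.51, 0.38 and 0.35). Genes had to be detected in at least 10% of the barcodes to be ranked.

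The barcodes of NTS, PYY, CCK, SST and SCT stood at the low end of the chromogranin scale. On day 0 the median sum of CHGA and CHGB was 16 UMIs in NTS barcodes, 19.5 in PYY, 19 in CCK, 19 in SST and 14 in SCT barcodes, against 63 in the gated barcodes without NTS and 58 in those without SST or without SCT. GCG barcodes had a median of 35 on day 0 and 29 on day 1, and the single one of day 3 had 89. TAC1 barcodes stood at the other end with a median of 95 against 55 in the rest. On day 1 the medians were 19 for NTS, 19 for PYY, 20 for SST and 65 for TAC1, and 70 over all gated barcodes. The gate uses CHGA and CHGB, so these medians are descriptions of where the hormones sit within the gate.

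The larger part of the cells with a hormone lay below the gate. On day 0, 200 of 275 cells with NTS held fewer than 10 UMIs of CHGA and CHGB, as did 171 of 255 with PYY, 64 of 77 with GCG, 82 of 101 with CCK, 51 of 85 with SST and 37 of 72 with SCT. Only TAC1, with 11 of 12 cells in the gate, and GHRL, with 3 of 3, lay almost wholly inside. Cells outside the gate with no CHGA or CHGB UMI at all numbered 93 for NTS, 65 for PYY and 38 for GCG. Other granins (SCG2, SCG3, SCG5 and PCSK1N) reached 3 UMIs in 123 of the 163 epithelial NTS cells outside the gate, 123 of 168 with PYY, 52 of 60 with GCG and 35 of 37 with SCT, but in 35 of 80 with CCK and 9 of 47 with SST. Of the NTS cells outside the gate, 163 had at least 3 epithelial UMIs, with a median of 436 NTS UMIs and a highest value of 5444. For PYY the number was 168 of 171, and for GCG 60 of 64.

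The pattern of shared barcodes was also present when the gate was dropped, an alternative chosen after the data were seen. Over all 10836 cells of day 0, PYY was in 68.7% (62.9 to 74.2) of the 275 NTS cells, NTS was in 95.8% (88.3 to 99.1) of the 72 SCT cells, and PYY was in 81.8% (71.4 to 89.7) of the 77 GCG cells. NTS was in 46.8% (35.3 to 58.5) of the GCG cells and in 8.24% (3.38 to 16.2) of the 85 SST cells. Over the gate alone the share of GCG barcodes with NTS was 3 of 13.

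**Figure D3:**
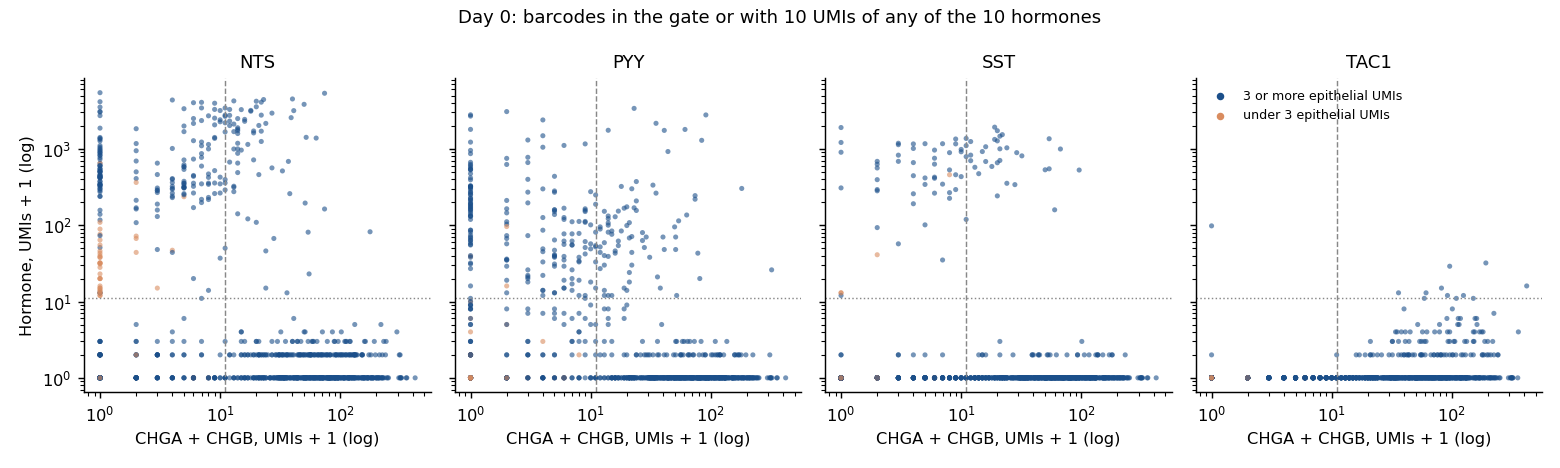
Day 0 barcodes in the gate or with 10 UMIs of any of the 10 hormones, by CHGA plus CHGB (horizontal, UMIs plus 1, log scale) and UMIs of NTS, PYY, SST or TAC1 plus 1 (vertical, log scale); the dashed line marks the gate and the dotted line the hormone threshold, and colour marks epithelial UMIs. NTS, PYY and SST clouds lie across and left of the gate, with 200 of 275 NTS cells left of it, and the 12 TAC1 cells lie right of it except 1.

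The number of gated barcodes and the mix of cells both changed with age. The shares were therefore also taken over epithelial cells of any chromogranin level, again a choice made after the data were seen. At least 1 of the 10 hormones was held by 430 of 3906 epithelial cells on day 0, 11% (10.0 to 12). At the next 3 ages it was 62 of 1948 cells, 3.18% (2.45 to 4.06), 11 of 222 cells, 4.95% (2.50 to 8.69), and 29 of 725 cells, 4% (2.69 to 5.69). Thinning to 2000 UMIs left out shallower cells, and in order of age 3518, 1710, 196 and 377 epithelial cells remained. Among them the shares were 9.44%, 2.46%, 3.06% and 5.84%. Day 7 went from 29 of 725 cells to 22 of 377, so the thinned shares describe only the deeper cells. Without thinning, the interval of day 0 lies above those of the other 3 ages. After thinning, the intervals of day 0 (8.49 to 10.5) and day 7 (3.69 to 8.70) overlap, and the median depth of epithelial cells was 7126 UMIs on day 0 and 2108 on day 7.

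For GCG the shares of epithelial cells rested on 73, 25, 2 and 18 cells. In order of age it was held by 1.87% (1.47 to 2.34), 1.28% (0.832 to 1.89), 0.901% (0.109 to 3.22) and 2.48% (1.48 to 3.90) of epithelial cells, and all 4 intervals overlap. After thinning, among the deeper cells kept, the shares were 1.45%, 0.877%, 1.02% and 2.65%. PYY was held by 6.45% (5.70 to 7.27), 1.59% (1.08 to 2.25), 0.901% (0.109 to 3.22) and 3.03% (1.91 to 4.56), with the 3 later intervals below that of day 0. Among the deeper cells kept for thinning, PYY was held by 5.26% (4.54 to 6.05) on day 0 and 4.51% (2.65 to 7.12) on day 7, and these overlap. NTS was held by 6.09% (5.36 to 6.89), 1.28% (0.832 to 1.89), 0.450% (0.0114 to 2.48) and 1.93% (1.06 to 3.22). SST was held by 2.07% (1.65 to 2.57), 0.770% (0.432 to 1.27), 1.80% (0.493 to 4.55) and 0.138% (0.00349 to 0.766). On day 7 the 18 epithelial cells with GCG all lay outside the gate, as did 20 of the 22 with PYY, and 12 of the 18 had no CHGA or CHGB UMI.

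On day 14 a single epithelial barcode with 12886 UMIs, which also had at least 3 B lineage UMIs, held NTS, CCK, PYY, SCT and GCG with 2495, 364, 292, 40 and 18 UMIs and no UMI of CHGA or CHGB. No other epithelial cell of day 14 held any of the 10 genes at 10 UMIs, of 53 epithelial cells in all. On day 21, with 1 epithelial cell, only 3 cells passed the threshold for any hormone.

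**Figure D4:**
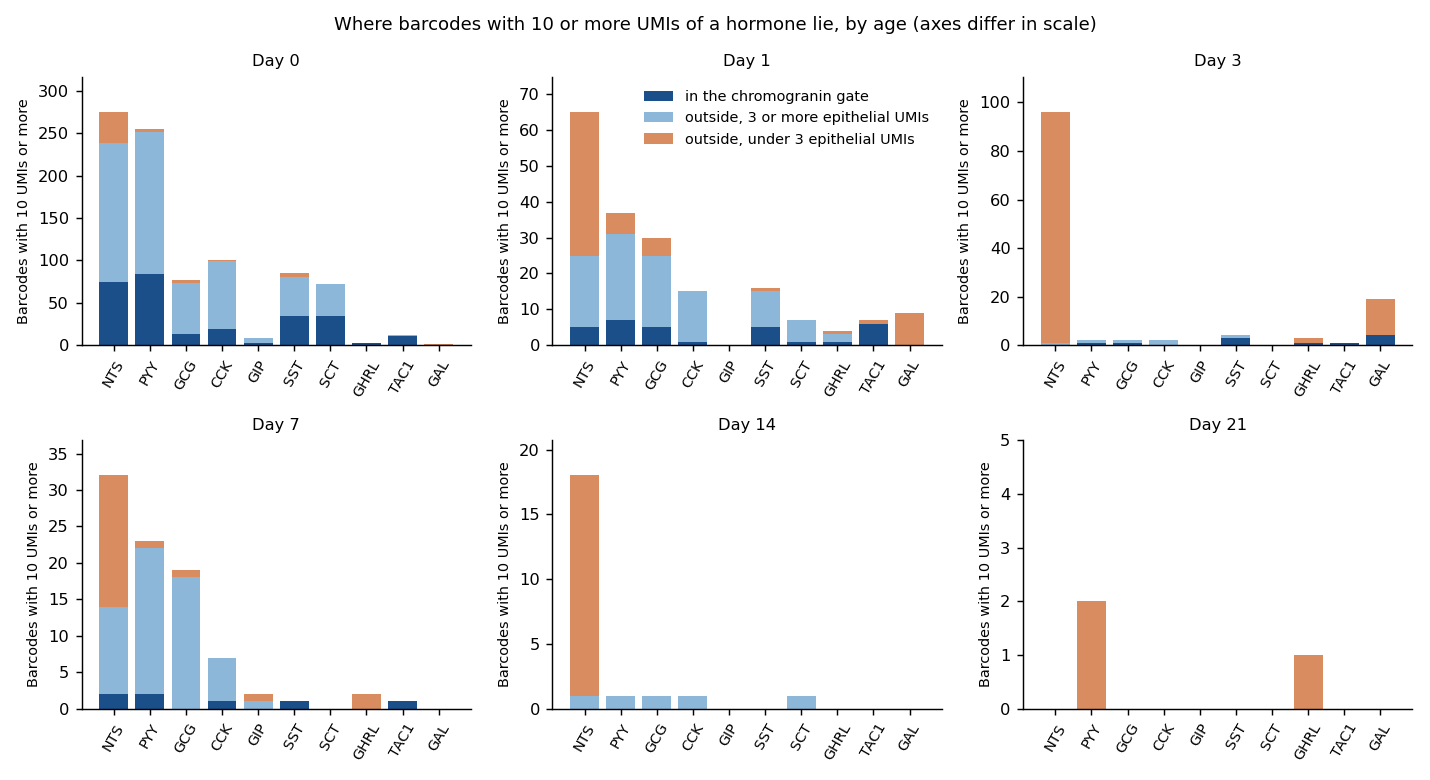
Number of cells with 10 or more UMIs of each hormone at each age, split into the chromogranin gate, other epithelial cells (3 or more epithelial UMIs) and cells with under 3 epithelial UMIs; vertical axes differ. On day 0 most cells with NTS, PYY, GCG and CCK are epithelial but outside the gate. On day 3, 95 of 96 NTS cells and 15 of 19 GAL cells lie outside the gate with under 3 epithelial UMIs.

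Part of the NTS cells had few epithelial UMIs, which alone does not show that a cell was not epithelial. Cells outside the gate with NTS and under 3 epithelial UMIs numbered 37, 40, 95, 18 and 17 at the first 5 ages. Their medians were 31, 27.5, 31 and 19 NTS UMIs at the first 4 ages. In epithelial NTS cells outside the gate the medians were 436, 1052.5 and 418.5 at days 0, 1 and 7, and the single such cell of day 3 held 19. Of the 95 cells of day 3, 93 had no CHGA or CHGB UMI, 13 had at least 3 B lineage UMIs and 3 had at least 3 T cell UMIs. On day 7, 9 of the 18 cells had at least 3 B lineage UMIs. Of the 37 cells of day 0, 6 had at least 3 UMIs of the enteroendocrine list and 6 had as many of the goblet list. The highest NTS count among the 37 was 648 UMIs.

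Many of these NTS cells held genes known from group 3 innate lymphoid cells, immune cells of the mucosa that make IL22. The genes named here, other than TAC3, were chosen after their values were seen. Of the 95 cells on day 3, TAC3 (neurokinin B) had a UMI in 94.7% against 12.3% of all remaining cells, IL7R in 92.6% against 10.6%, KIT in 75.8% against 6.87%, NCR2 in 68.4% against 4.42%, IL23R in 67.4% against 4.31% and IL22 in 41.1% against 3.02%. On day 0 TAC3 had a UMI in 67.6% of the 37 cells against 6.55%, and KLRB1 in 64.9% against 4.19%, while IL23R had one in 32.4% against 1.62%, NCR2 in 18.9% against 2.27% and IL22 in 5.41% against 0.611%.

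GAL also lay mostly outside the gate and outside epithelial cells. GAL was called in 2, 9 and 19 cells at the first 3 ages, and after that the files hold 0 UMIs of GAL, which allows up to 0.000388 per 10000 UMIs of a library. No GAL cell outside the gate had 3 epithelial UMIs. The neuronal gene UCHL1, chosen after values were seen, had a UMI in 9 of the 9 cells of day 1 and in 15 of the 15 outside the gate on day 3, against 0.908% of all remaining day 3 cells. The vasoactive peptide VIP had a UMI in 5 of the 9 and 7 of the 15. Without the 4 GAL barcodes, the day 3 gate held no GAL UMI and VIP was 0.0441 per 10000 in place of 30.1, and without the 5 barcodes of few epithelial UMIs GAL was 2.53 in place of 12.9. SST was 110 per 10000 with all 40 barcodes, 133 without those 5 and 139 without those 4.

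The level of each hormone, its UMIs summed over a group of barcodes per 10000 UMIs of the group, was compared between the gate and all other cells of the same library. These are counts of transcript ends and are not ranked between genes. On day 0 NTS stood at 249.9 (248.5 to 251.3) in the gate, 21.5 in other cells, 23.2 in the smallest barcodes (at most 100 UMIs), taken as RNA free in the suspension, and 1.74 in cells with T cell markers and no CHGA or CHGB UMI. PYY stood at 46.9 in the gate, 6.65 in other cells and 7.51 in free RNA, and SST at 60.2, 4.34 and 5.84. The ratio of the gate to other cells was 11.6 for NTS, 13.9 for SST, 12.9 for SCT, 15.2 for GHRL and 44.2 for TAC1, and 7.05 for PYY, 1.52 for GCG, 2.49 for CCK, 1.94 for GIP and 0.196 for GAL. Thus 5 of the 10 hormones were at least 10-fold higher in the gate, where 2.09% of all 14767 genes tested were. The other cells include the hormone cells outside the gate, and 45.2% of the NTS UMIs found in cells lay in the gate.

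On day 1 the ratio of the gate to other cells was 13.1 for NTS, 19.7 for PYY, 14.2 for GCG, 27.1 for SST, 22 for SCT, 14.7 for GHRL and 220 for TAC1, and 0.783 for CCK. Thus 7 of the 9 hormones tested were at least 10-fold higher in the gate, against 2.11% of all genes tested. On day 3 it was 6 of 8, against 7.08% of all genes, with 1419 for SST, 248 for TAC1, 153 for PYY, 124 for GAL, 48.1 for GHRL and 45.3 for GCG. Without the 4 GAL barcodes it was 5 of 8, GAL no longer among them, against 5.22% of genes. Single barcodes carry several of these sums, since single barcodes held 97.4% of the PYY UMIs, all of the GCG UMIs and 50 of the 51 GHRL UMIs of the day 3 gate.

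Between the libraries of days 0 and 1, NTS, CCK, SCT and GIP were lower in the day 1 gate and GCG and TAC1 were higher. NTS stood at 249.9 per 10000 on day 0 and 55.2 on day 1, a ratio of 0.221, and without the barcodes that held other cell types' markers the ratio was 0.0978. CCK stood at 4.07 and 0.604, SCT at 2.24 and 0.483, and GIP at 1.62 and at 0 UMIs, a ratio of at most 0.0186. GIP rested on 3 barcodes of day 0, 1 of which held 71.2% of its UMIs, and its share of barcodes, 0.485% on day 0, lies below the 2.80% that a count of 0 allows on day 1, so by barcodes a difference was not detectable. In all, 4 of the 9 hormones tested were at least 2-fold lower on day 1, against 6.37% of genes, and 2 were at least 2-fold higher, against 4.26%. By share of barcodes the day 0 and day 1 intervals overlap for NTS, CCK, SCT, GCG and TAC1. GCG stood at 3.80 and 10.8, a ratio of 2.85, and TAC1 at 0.758 and 1.74, a ratio of 2.3. The GCG value rested on few cells, with 52.0% of the day 1 UMIs in 1 barcode, and the ratio was 0.625 when the gate was set on SCG2, SCG3 and SCG5 in place of CHGA and CHGB. The CCK ratio was 1.49 with that gate, so the directions of GCG and CCK turned with it.

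PYY, SST and GHRL differed by less than 2-fold between the 2 libraries, with ratios of 0.827, 0.646 and 1.67. On day 3 the gate held no NTS UMI, at most 0.105 per 10000, and a ratio to day 1 of at most 0.00190. That bound counts UMIs, and 47.7% of the day 1 NTS UMIs lay in 1 barcode. By barcodes, 0 of 40 allows up to 7.50%, above the day 1 share of 4.67%, so a difference was not detectable. PYY stood at 2.69 and GCG at 2.73 there, ratios of 0.0694 and 0.252, while CCK and SCT had 3 UMIs each. SST stood at 110 per 10000 against 38.9 on day 1, a ratio of 2.83, and 1 barcode held 43.8% of its UMIs. Thus 5 of the 9 hormones tested were at least 2-fold lower on day 3 than on day 1, against 14.7% of genes, and 3 (SST, GHRL and GAL) were higher, against 11.4%. By barcodes a difference from day 1 was detectable for none of the 5 lower ones, since PYY and GCG were each called in 1 of 40, 2.50% (0.0633 to 13.2), and CCK and SCT were called in none, against 0.935% each on day 1. The intervals of SST and of GHRL overlap too. Without the 4 GAL barcodes 2 of 8 tested (SST and GHRL) were higher, against 9.30% of genes, and the same 5 were lower.

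Against day 0, 5 of 10 hormones (NTS, PYY, CCK, GIP and SCT) were at least 2-fold lower on day 3, against 10.8% of genes, and 2 (GHRL and GAL) were higher, against 13.3%. By barcodes only the NTS share of day 0 has an interval above what a count of 0 allows on day 3 among the 5 lower ones, since those of PYY overlap and the limit of 7.50% lies above the day 0 shares of CCK, GIP and SCT. Without the 4 GAL barcodes GAL was not tested and 2 of 9 (SST and GHRL) were higher, against 10.5% of genes. This comparison shares its libraries with those above. Over all genes the day 3 gate had 863 higher and 1106 lower than the day 1 gate, and 1498 and 1219 against day 0. TMM scaling gave 558 and 1468, and 864 and 1890, with the same hormones called. On day 7 the 10 gated barcodes gave NTS 1114 and SST 141 per 10000, of which single barcodes held 65.3% and 100% of the UMIs. With so few barcodes these values describe single cells.

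**Figure D5:**
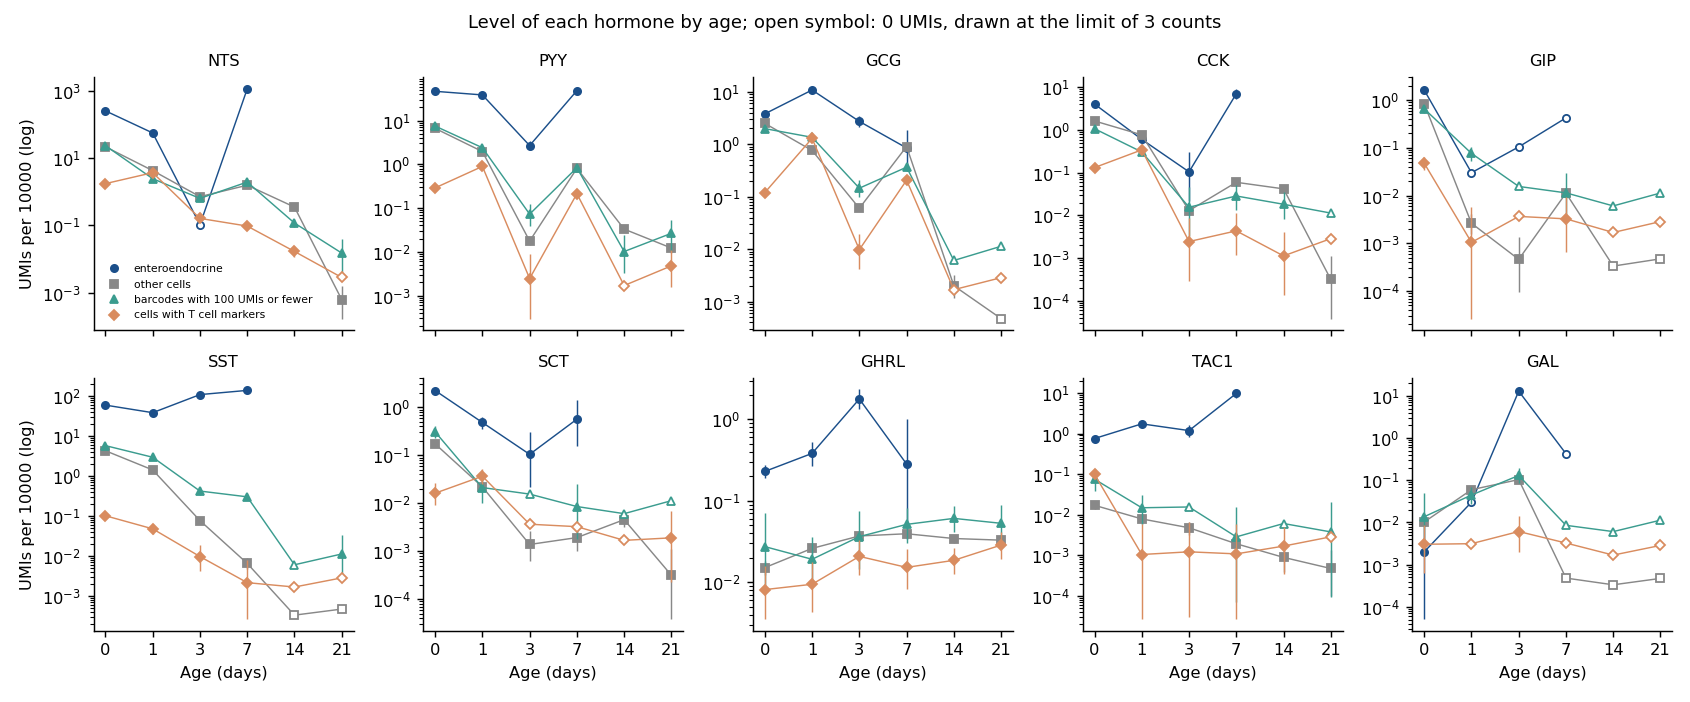
UMIs of each hormone per 10000 UMIs (log scale) at each age in the enteroendocrine gate, in all other cells, in barcodes of 100 UMIs or fewer (free RNA) and in cells with T cell markers and no CHGA or CHGB UMI; open symbols mark 0 UMIs and are drawn at the limit of 3 counts. On day 0 NTS is at 249.9 in the gate and near 22 in other cells and in free RNA, and GAL in the gate is at 12.9 on day 3 and at 1 UMI on day 0.

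Sums over whole libraries took in every barcode, gated or not, and move with the mix of cells. In UMIs per 1000000, and in order of age, NTS stood at 3308, 460, 78.9, 268, 32.3 and 0.401. PYY ran through 861, 242, 6.04, 80.3, 3.07 and 4.56, and GCG through 260, 95.7, 11.2, 79.4, 0.189 and 0.0129. Both were thus higher in the day 7 library than in that of day 3, while SST was lower (717, 205, 57.3, 16.3, 0 and 0.0388). GHRL stayed between 2.75 and 4.20 per 1000000 at all 6 ages. On day 0 the gate held 114 of the 220 GHRL UMIs found in cells. On day 7 the gate held 2 of 247, and cells with B lineage markers and no CHGA or CHGB UMI held 239. In such cells GHRL stood at 0.0508 (0.0417 to 0.0612) per 10000 UMIs on day 1, against 0.0191 (0.00876 to 0.0363) in free RNA. On days 0 and 3 the intervals of these 2 groups overlap. At the last 3 ages GHRL stood at 0.0431, 0.0351 and 0.0331 per 10000 UMIs in cells with B lineage markers and no CHGA or CHGB UMI and at 0.0514, 0.0609 and 0.0530 in free RNA, with overlapping intervals on days 7 and 21 and the higher value in free RNA on day 14.

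The genes that make and pack hormones were high in the gate with them. Apart from CHGA and CHGB, which set the gate, 6 of the 8 granin and prohormone processing genes tested were at least 10-fold higher in the gate than in other cells on day 0, where 2.09% of all genes were, with 128 for PCSK1, an enzyme that cuts prohormones, 40.5 for the granin SCG2 and 14.9 for CPE, which trims the cut ends. Of 3 serotonin genes, TPH1 (509) and the vesicle transporter SLC18A1 (100) passed and DDC (5.60) did not. Of 15 transcription factors 9 passed, among them NEUROD1 (90.9), PAX4 (147), LMX1A (197) and ISL1 (12.8). The medians of these 3 lists, CHGA and CHGB included in the first, were 19.6, 100 and 20.3, against 9.35 for the hormones and 1.14 for all genes.

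Of 8 other gut peptide genes tested only UCN3 and PENK passed on day 0, against the same 2.09% of all genes, which is also the background of the counts of receptors and sensors here. UCN3 encodes urocortin 3, of the stress hormone family, and had a UMI in 87.2% of gated barcodes, at 7.18 per 10000 against 0.157 in other cells. PENK encodes the precursor of enkephalins and had a UMI in 57.0%, at 10.2 against 0.0103, a ratio of 988. In the gate UCN3 stood at 4.73 on day 1 and 3.11 on day 3, and PENK at 7.97 and 3.84, while TPH1 stood at 4.58, 6.44 and 8.35 on days 0, 1 and 3. Of 12 receptors 4 passed, namely NPY1R (136), which binds peptide YY, GCGR (109), GIPR (17.1) and SSTR1 (11.2), all below 0.5 per 10000. Of 8 nutrient sensors only ABCC8 passed (14.9). NEUROG3, the factor that starts endocrine fate, stood at 0.0222 on day 0 and 0.403 on day 1, and the 40 UMIs of day 1 lay in 1 barcode.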

How the data were processed

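Whole-number UMI counts per gene and barcode were deposited by the authors as unfiltered matrices, 1 for each of 6 libraries, with 20648 genes and 6794880 barcodes each. The submitters' processing notes name Cell Ranger 3.1.0, STAR and the susScr11 build. The labels name ileum and a V3 kit for the 3′ ends of transcripts, while the series text names cecum and the methods another kit version, and how the piglets of an age were combined was not given in the sources used here. Barcodes with at least 1000 UMIs and 500 genes were kept as cells, and no doublet caller was run. Levels are UMIs per 10000 UMIs of a group, and shares carry exact Clopper-Pearson and sums exact Poisson 95% intervals. The limit for a count of 0 is 3 counts. Thinning drew 2000 UMIs from each barcode and left out shallower ones. A marker list was present at 3 UMIs.

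Fold calls needed 20 UMIs over both groups, and 10-fold against other cells or 2-fold between ages. A further need for more than 3 UMIs in the higher group was added after values were seen. With 1 library per age no test was made. The named genes were the 10 hormones, CHGA and CHGB, the 3 genes most alike to each hormone with at least 20 positive barcodes, and lists of granins, serotonin genes, transcription factors, peptides, receptors and sensors. The members and lists were chosen with earlier results of these data known. Alternatives changed the gate, the thresholds, the cell filters and the scaling. The fold code was run on simulated sums of well-counted genes, drawn without spread between barcodes. That run checks the code and cannot show how far calls resting on few barcodes hold. Python 3.11.15, numpy 2.4.6, scipy 1.17.1, pandas 2.3.3, matplotlib 3.10.9, R 4.3.3 and edgeR 4.0.16 (TMM factors only) were used. Gene positions came from a RefSeq table of Sscrofa11.1. Some genes are not reported here.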

Additional observations from a re-analysis of the deposited data

How the results depend on the processing

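No paired analysis was possible because there is 1 library per age, and for the same reason no library could be left out. With the gate set on SCG2, SCG3 and SCG5 there were 278 enteroendocrine barcodes on day 0 and 18 on day 7, in place of 618 and 10, and the share with any hormone was 39.6% on day 0 and 41.9% on day 3. The same gate turned 2 directions, with day 1 over day 0 ratios of 0.625 for GCG and 1.49 for CCK. The share on day 0 was 30.8% with a gate of 5 UMIs and 13.6% with a gate of 20, and on day 1 it was 27.1% when a hormone was called at 5 UMIs. Without barcodes with other cell types' markers, 6 remained on day 7. The cause of these moves was not tested.

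Counts of genes moved with the filter and the fold. With genes of 100 UMIs or more, 168, 146 and 530 genes were at least 10-fold higher in the gate on days 0, 1 and 3 (308, 308 and 988 before). At 4-fold these were 747, 776 and 1659, and with no minimum in the higher group 2211 on day 3. Between ages within the gate, genes of 100 UMIs or more gave 168 higher and 136 lower on day 1 than day 0. For day 3 they gave 113 and 266 against day 1, and 560 and 732 against day 0. At 4-fold the counts were 71 and 182, 166 and 378, and 321 and 313. TMM scaling gave 558 higher on day 3 than day 1, and 864 higher and 1890 lower on day 3 than day 0, in place of 863, 1498 and 1219. With no filter on low genes 1808 were higher on day 3 than day 1. Under TMM the hormones called in each comparison between ages were the same. Of 810 alternative values over 102 results, 595 stayed within their counting interval or within 1.5 times, 213 moved further and 2 turned. A turn could be labelled only among the 80 values of day 1 over day 0 and the 52 ratios of the gate to other cells. The 40 and 10 gated barcodes of days 3 and 7 limit every value there.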
